A study of Mus musculus with 8 samples.

Results

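The angiomotins, the WWC proteins, NF2, PTPN14, FRMD6 and the LIM proteins Ajuba and Limd1 are regulators that act on the Hippo pathway from cell junctions and the cell cortex. Their 10 genes were taken by symbol from 26747 deposited loci, where 9 stood under their own symbol and Ajuba stood under its older symbol Jub, which RefSeq lists as a synonym. The samples were E13.5 embryonic mouse stomachs, as 4 libraries of the genotype Nkx3.2Cre;R26-YAP5SA (YAP5SA below) and 4 wild type libraries. In the first genotype, Cre recombinase driven by the Nkx3-2 gene, a gene of the stomach mesenchyme, turns on a transgene at the Rosa26 locus for a YAP protein that the Hippo kinases cannot inhibit. No group carried Cre without the transgene, so an effect of Cre cannot be told apart from that of the transgene, and the labels give neither the strain nor the sex of the embryos, nor whether embryos were pooled.

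The Hippo pathway is a kinase cascade that restrains YAP and TAZ, coactivators that switch on genes in the nucleus together with TEAD transcription factors. NF2, also called Merlin, and the WWC proteins bring the kinases together at the cell cortex, angiomotins and PTPN14 bind YAP directly and hold it outside the nucleus, and Ajuba and Limd1 bind LATS kinases at junctions and keep them from acting on YAP. The family therefore holds both brakes on YAP and proteins that release a brake, and Amotl2 and Ptpn14 are known in mammalian cells as targets of YAP and TEAD themselves.

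The short sequence CATTCC, read on the other strand as GGAATG, is the core that TEAD factors bind. Both forms were searched for in the 250 bases before each RefSeq start site (GRCm38.p6). Of the 9 members with an entry, 4 held it and 5 did not, and 12.6% of the 32851 windows in the table held it. The windows of Amotl2 (chromosome 9, 102717554 to 102717803, plus strand), Wwc2 (chromosome 8, 47990545 to 47990794, minus strand), Ptpn14 (chromosome 1, 189728018 to 189728267, plus strand) and Ajuba (chromosome 14, 54577662 to 54577911, minus strand) are shown because they are the ones with a match, and the matched letters are in capitals.
Amotl2: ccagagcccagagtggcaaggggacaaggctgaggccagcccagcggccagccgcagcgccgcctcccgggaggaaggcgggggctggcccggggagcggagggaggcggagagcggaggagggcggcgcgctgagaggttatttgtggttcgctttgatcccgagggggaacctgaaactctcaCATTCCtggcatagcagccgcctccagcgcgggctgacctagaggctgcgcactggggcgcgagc
Wwc2: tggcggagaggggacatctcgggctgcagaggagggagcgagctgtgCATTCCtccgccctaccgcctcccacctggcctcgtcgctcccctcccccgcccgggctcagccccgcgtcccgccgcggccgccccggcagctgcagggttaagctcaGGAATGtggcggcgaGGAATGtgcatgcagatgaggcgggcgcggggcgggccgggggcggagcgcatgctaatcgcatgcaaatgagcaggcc
Ptpn14: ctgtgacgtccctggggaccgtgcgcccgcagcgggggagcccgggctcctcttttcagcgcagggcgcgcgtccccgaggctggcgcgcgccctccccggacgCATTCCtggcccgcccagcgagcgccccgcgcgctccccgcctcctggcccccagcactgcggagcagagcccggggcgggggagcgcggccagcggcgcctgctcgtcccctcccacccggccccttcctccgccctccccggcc
Ajuba: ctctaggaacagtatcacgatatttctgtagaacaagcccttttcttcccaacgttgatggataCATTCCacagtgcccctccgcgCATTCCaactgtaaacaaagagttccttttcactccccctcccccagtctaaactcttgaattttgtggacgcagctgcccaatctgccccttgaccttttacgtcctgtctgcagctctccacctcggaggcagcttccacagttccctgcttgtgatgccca
The match began 65 bases before the start site in Amotl2 and 146 bases before it in Ptpn14. Wwc2 held 3 copies, 203, 94 and 79 bases before the start, of which the last 2 lie 15 bases apart and read GGAATG. Ajuba held 2 copies, 186 and 164 bases before the start. At least 2 copies were found in 1.02% of all windows and at least 3 in 0.0913%. No match was found for Amot, Amotl1, Wwc1, Frmd6 or either start of Nf2, and Limd1 was not analysed here for this motif. Each window covers only that start site: for Amotl2 and Amot the RefSeq start (102717804 on chromosome 9 and 145487639 on chromosome X) lies inside the deposited locus, which has further starts. The RefSeq start of Amotl1 (14615000 on chromosome 9, minus strand) also lies inside its deposited locus. That locus reaches 14615329, past the far end of the window at 14615250. The locus of Frmd6 begins at 70825463, inside its window, and those of Wwc1 and Wwc2 reach 35980544 and 47990551, also inside theirs. The window of Nf2 from 4833136 to 4833385 lies wholly inside its locus. A match is a run of letters, and TEAD binding was not measured.

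**Figure D1:**
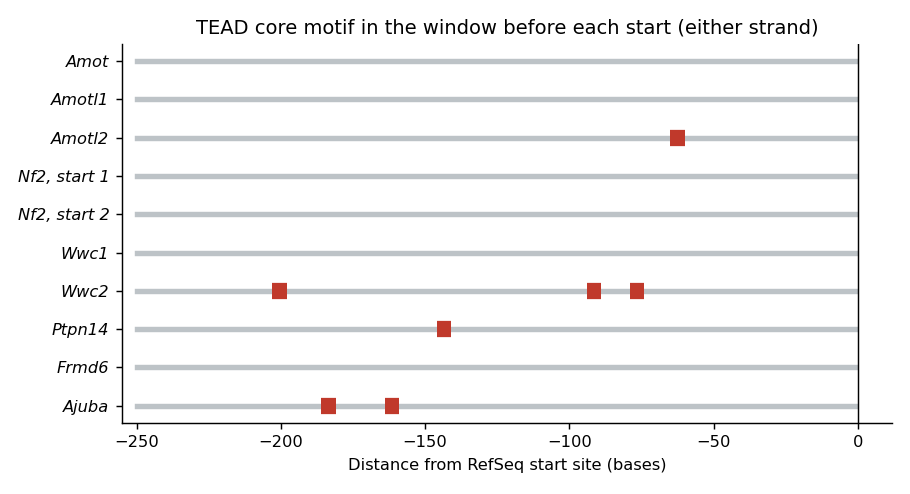
Position of the TEAD core motif CATTCC or GGAATG (red) in the 250 bases before each RefSeq start site of 9 members (grey bars), with the distance from the start in bases on the horizontal axis. Wwc2 has 3 copies, Ajuba 2, Amotl2 and Ptpn14 1 each, and the other windows none.

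The libraries held 7293556 to 8513116 fragments in YAP5SA and 6328344 to 6919353 in wild type. Markers of stomach mesenchyme such as Pdgfra, Meis1 and Barx1 were present in all libraries, and the YAP target gene Ankrd1 was at 45.4 ± 21.4 CPM in YAP5SA and 0.391 ± 0.398 CPM in wild type (SD, n = 4; CPM, fragment counts scaled to the effective library size). Marker genes of several cell types differed between the genotypes. All 21 tested epithelial markers fell, Cdh1, Prom1 and Krt18 being the most abundant, with a summed level of 852 to 1232 CPM in YAP5SA and 1648 to 2054 CPM in wild type. Of 10 macrophage markers 9 rose, including Mrc1, Csf1r and Cx3cr1, with a sum of 604 to 872 CPM in YAP5SA and 333 to 451 CPM in wild type. Of 13 endothelial markers 1 rose, Kdr, while Cdh5 and Pecam1 were not called, and the sums overlapped at 993 to 1146 CPM in YAP5SA and 895 to 1076 CPM in wild type. Of 10 mesothelial markers 4 fell (576 to 627 CPM in YAP5SA and 659 to 938 CPM in wild type), among them Aldh1a2 and Upk3b but not Wt1. Krt19, another of the 4, is also on the epithelial list and is counted in both sums. It was at 74.2 ± 8.31 CPM in YAP5SA and 110 ± 9.73 CPM in wild type. Smooth muscle genes fell in 7 of 12 cases (Myh11 and Mylk but not Cald1), enteric neuron and glia genes in 10 of 13 (with Ret, Tubb3 and Stmn2) and stomach mesenchyme genes in 4 of 10. With the replicate number as a block, 1 more marker was called in each of 4 lists: the endothelial gene Eng (2 of 13 rose, adjusted p = 0.048), the macrophage gene Tyrobp (10 of 10 rose, adjusted p = 0.035), the smooth muscle gene Smtn (8 of 12 fell, adjusted p = 0.011) and Pdgfra of the mesenchyme list (5 of 10 fell, adjusted p = 0.016). No marker with a locus in the files was at 0 in every library. In bulk tissue, fewer cells of a type and less RNA per cell cannot be told apart, and the part of these shifts in the results below was not tested.

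All 10 members passed the filter on low counts, with 366 to 2361 fragments per library. In YAP5SA stomachs 5 of the 10 rose, 0 fell and 5 were not called (edgeR, Benjamini-Hochberg adjusted p under 0.05 over 14574 loci). Over all tested loci 18.9% were called, 9.06% as higher and 9.85% as lower in YAP5SA. With the replicate number as a block, 7 of the 10 rose, beside 9.91% of all tested loci. The genes that rose were Amotl2, Wwc2, Wwc1, Ajuba and Frmd6, by 1.18-fold to 1.64-fold. Of the members 5 had genotypes that did not overlap, all higher in YAP5SA, beside 10.9% of all tested loci that were separate and higher and 23.3% that were separate in either direction. The median log2 fold change of the members was 0.29, and that of all tested loci −0.01.

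**Figure D2:**
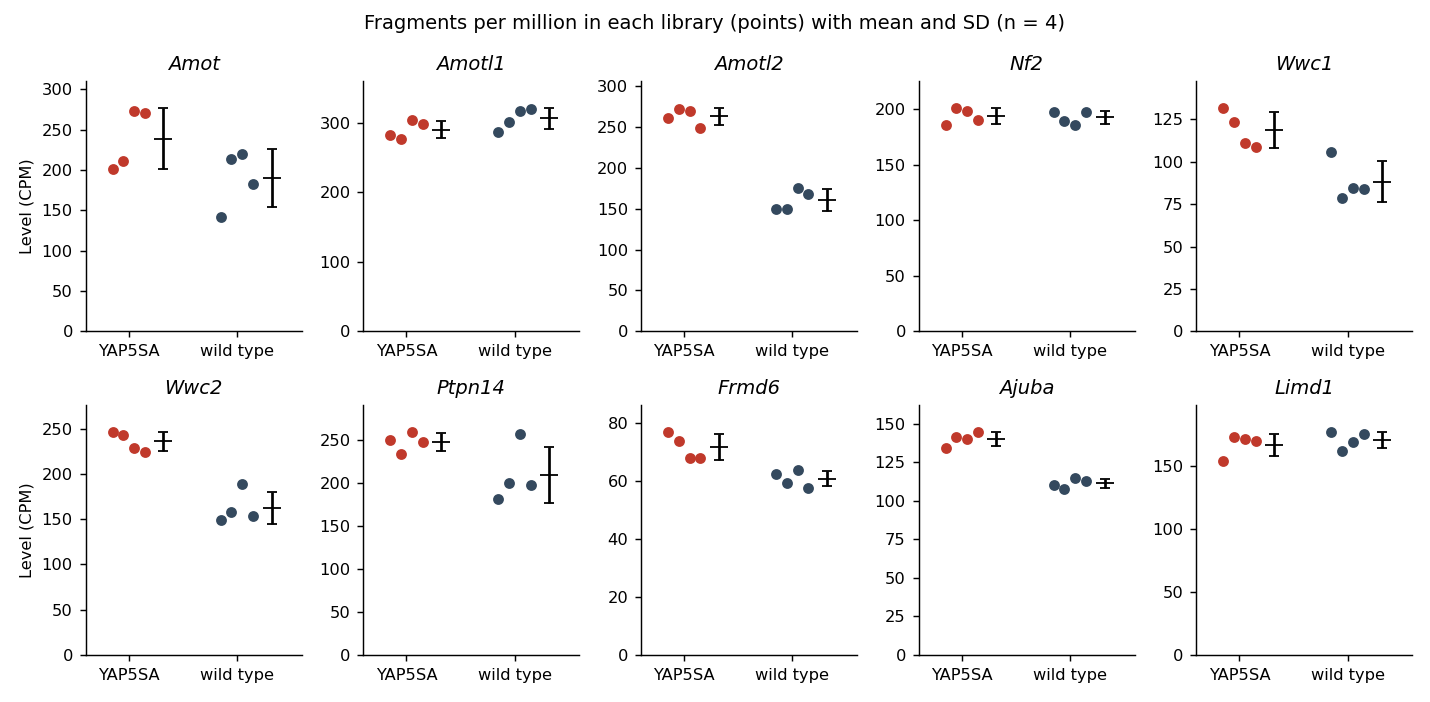
Level of each member in CPM in each of the 8 libraries, YAP5SA in red and wild type in dark blue, in order of replicate number, with the mean and SD of 4 libraries beside the points. The points of Amotl2, Wwc1, Wwc2, Frmd6 and Ajuba do not overlap between the genotypes.

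Among the angiomotins, adaptor proteins that bind YAP and actin, Amotl2 had the largest difference of all members. Amotl2 (chromosome 9, 102716720 to 102733418, mm10; locus XLOC_024484; protein-coding) was at 261, 272, 270.0 and 249 CPM in YAP5SA libraries 1 to 4, against 149, 149.8, 175 and 168 CPM in wild type libraries 1 to 4. Every YAP5SA library was above every wild type library. Its log2 fold change was 0.71 ± 0.06 (SE, n = 4, adjusted p = 8.2e-05), the 55th smallest p of 14574 loci.

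Amot (chromosome X, 145446424 to 145505281, mm10; locus XLOC_026385; protein-coding), the founding angiomotin, was at 201, 211, 273 and 270.3 CPM in YAP5SA, against 142, 214, 220.2 and 183 CPM in wild type. The genotypes overlapped, and both varied widely, by an SD of 38.0 CPM around 239 CPM in YAP5SA and of 36.0 CPM around 189.5 CPM in wild type. Its log2 fold change of 0.33 ± 0.14 was not called (adjusted p = 0.14), but it was called with the replicate number as a block (0.34, adjusted p = 0.04). Amot is X-linked, and the libraries differed in Xist, the noncoding RNA made from the inactive X chromosome of female cells. Xist was at 998, 0.967, 840 and 836 CPM in YAP5SA libraries 1 to 4 and at 2.07, 0.441, 0.45 and 1070.5 CPM in wild type libraries 1 to 4, so 3 of the 4 libraries of YAP5SA and 1 of the 4 of wild type were high. The Y-linked genes Ddx3y, Eif2s3y, Kdm5d and Uty ran the other way. Ddx3y was at 0, 124, 0 and 0 CPM in YAP5SA and at 101, 107, 92.1 and 0.158 CPM in wild type. By these genes the genotypes were not balanced for sex. Among the libraries high in Xist, Amot was at 201, 273 and 270.3 CPM in YAP5SA and 183 CPM in wild type, and among those low in Xist at 211 CPM in YAP5SA and 142, 214 and 220.2 CPM in wild type. With the Xist level as a covariate the log2 fold change was 0.32 (adjusted p = 0.3).

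Amotl1 (chromosome 9, 14541967 to 14615329, mm10; locus XLOC_024678; protein-coding) was at 283, 277, 303 and 297 CPM in YAP5SA, against 287, 301, 317 and 319 CPM in wild type. The groups overlapped, and the log2 fold change was −0.08 ± 0.05 (adjusted p = 0.37). FPKM divides by a length, so related genes can be set side by side. The lengths used are not given, and the shares below depend on them. The summed level of the 3 angiomotins was 129.75 ± 5.60 FPKM in YAP5SA and 98.6 ± 8.21 FPKM in wild type (SD, n = 4). Amotl2 made up 50.2 ± 2.84% of that sum in YAP5SA and 39.9 ± 1.93% in wild type, and Amotl1 25.3 ± 0.503% in YAP5SA and 34.8 ± 1.56% in wild type. The share of Amot was 24.5 ± 2.65% in YAP5SA and 25.2 ± 3.15% in wild type.

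Whether related genes differed unequally was read from the ratio of their fragments within a library, which does not depend on scaling between libraries. It can still depend on depth where the counts of related genes follow depth unequally, and that part was not tested. Amotl2 over Amotl1 was 0.924, 0.982, 0.89 and 0.836 in YAP5SA, against 0.52, 0.498, 0.552 and 0.527 in wild type, a log2 difference of 0.79 (exact two-sided permutation test p = 0.029, adjusted p = 0.048 over 5 pairs). That p is the smallest that 4 against 4 libraries allow. The permutations treated the 8 libraries as independent, although libraries of the same number deviated together. Pairing was not tested for the ratios, since 4 pairs are too few for a permutation within pairs to reach 0.05. Pairs that share a gene are also not independent of each other. The 5 pairs were chosen after values were seen, so the p-values of the ratios here and below are a description only. Amot over Amotl1 also separated the genotypes, at 0.711 to 0.909 in YAP5SA and 0.494 to 0.71 in wild type (log2 difference 0.42, exact permutation p = 0.029, adjusted p = 0.048), though the edges nearly touch. Amot is X-linked, and the part of sex in that ratio was not tested. Amotl2 over Amot overlapped, at 0.92 to 1.30 in YAP5SA and 0.701 to 1.05 in wild type (log2 difference 0.37, exact permutation p = 0.14, adjusted p = 0.18).

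**Figure D3:**
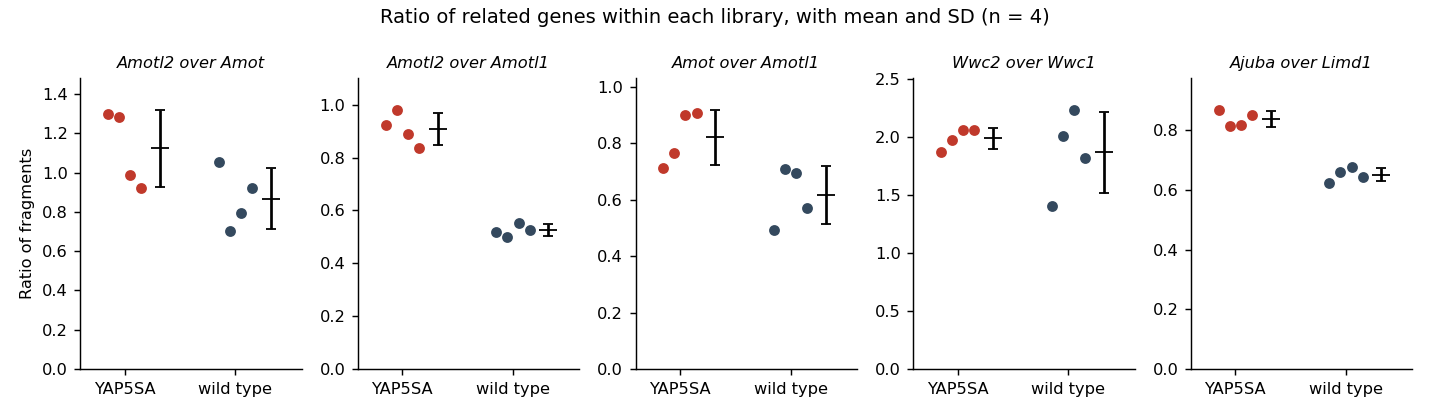
Ratio of the fragments of related genes within each library, for 5 pairs, with YAP5SA in red and wild type in dark blue and the mean and SD of 4 libraries beside the points. The genotypes separate for Amotl2 over Amotl1, Amot over Amotl1 and Ajuba over Limd1, and overlap for Amotl2 over Amot and Wwc2 over Wwc1.

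The cortical scaffold proteins of the pathway split between WWC genes that rose and Nf2, which was not called. Wwc2 (chromosome 8, 47826052 to 47990551, mm10; locus XLOC_023451; protein-coding), a relative of Kibra, was at 247, 244, 229 and 225 CPM in YAP5SA, against 149, 158, 189 and 153 CPM in wild type. The genotypes did not overlap, wild type library 3 being the nearest, and the log2 fold change was 0.54 ± 0.07 (adjusted p = 0.00082). Cldn22, a claudin gene on the opposite strand, overlaps an exon of Wwc2, and its own locus held 1 to 4 fragments per library. Since the use of strand is not given, fragments of the shared exon cannot be told apart.

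Wwc1 (chromosome 11, 35838399 to 35980544, mm10; locus XLOC_003707; protein-coding), which encodes Kibra, was at 132, 124, 111 and 109 CPM in YAP5SA, against 106, 78.8, 84.4 and 84.2 CPM in wild type. The groups did not overlap, but wild type library 1 came close to the lowest YAP5SA library. Its log2 fold change was 0.43 ± 0.10 (adjusted p = 0.01). In both genotypes library 1 had the highest Wwc1 and the highest summed epithelial markers, 1232 CPM in YAP5SA and 2054 CPM in wild type. The other YAP5SA libraries did not follow that order, since library 2 had the next highest Wwc1 and the lowest epithelial sum, 852 CPM. Within wild type, library 2 was lowest in both, at 78.8 CPM of Wwc1 and an epithelial sum of 1648 CPM. Wild type libraries 3 and 4 were nearly level in Wwc1, at 84.4 and 84.2 CPM, with epithelial sums of 1681.5 and 1832 CPM. Summed smooth muscle markers were also highest in library 1, at 1531 CPM in YAP5SA and 2218 CPM in wild type. In each genotype their libraries had the same order as in Wwc1. The part of epithelial or smooth muscle cells in the level of Wwc1 was not tested. Between the genotypes the epithelial and smooth muscle sums were lower in YAP5SA and Wwc1 was higher. The ratio of Wwc2 to Wwc1 was 1.99 ± 0.0908 in YAP5SA and 1.87 ± 0.352 in wild type (SD, n = 4; exact permutation p = 0.6), so a difference between the pair in response was not detectable here.

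Nf2 (chromosome 11, 4765845 to 4849544, mm10; locus XLOC_003603; protein-coding), the tumour suppressor of neurofibromatosis, was at 186, 201, 199 and 190.5 CPM in YAP5SA, against 198, 189.5, 186 and 198 CPM in wild type. The libraries of the genotypes were intermixed, with a log2 fold change of 0.01 ± 0.05 (adjusted p = 0.92). Frmd6 (chromosome 12, 70825463 to 70902234, mm10; locus XLOC_004794; protein-coding), a FERM domain protein related to the fly protein Expanded, was at 77.1, 73.9, 68.0 and 68.2 CPM in YAP5SA, against 62.6, 59.5, 63.7 and 57.8 CPM in wild type. The genotypes did not overlap, and it rose by 0.24 ± 0.06 (adjusted p = 0.022). That rise was no longer called after leaving out wild type library 2 (adjusted p = 0.053) or wild type library 4 (0.06), without both libraries numbered 1 (0.059) and in the 3 fits on FPKM (0.085, 0.085 and 0.097).

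Ptpn14 (chromosome 1, 189728268 to 189876693, mm10; locus XLOC_000624; protein-coding), a phosphatase that binds YAP, was at 250.1, 234, 260.0 and 248 CPM in YAP5SA, against 182, 201, 257 and 198 CPM in wild type. One wild type library, number 3, lay among the YAP5SA libraries, and the other wild type libraries lay below all of them. The log2 fold change of 0.24 ± 0.09 was not called (adjusted p = 0.1), while it was called without wild type replicate 3 (0.37, adjusted p = 0.0029), with the replicate block (0.25, adjusted p = 0.038) and by limma-voom after cyclic loess scaling (0.25, adjusted p = 0.049). Exons of Ptpn14 overlap the antisense gene Gm26574, and since the use of strand is not given, fragments of both cannot be told apart.

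The LIM proteins differed. Ajuba (chromosome 14, 54567469 to 54577661, mm10; locus XLOC_007296; protein-coding) was at 134, 141, 140.0 and 145 CPM in YAP5SA, against 110.4, 107, 115 and 113 CPM in wild type. The genotypes did not overlap, and the log2 fold change was 0.33 ± 0.04 (adjusted p = 0.00073). Limd1 (chromosome 9, 123478701 to 123521552, mm10; locus XLOC_024648; protein-coding) was at 154, 173, 171 and 170.1 CPM in YAP5SA, against 177, 163, 169.7 and 175 CPM in wild type, and was not called (−0.03 ± 0.05, adjusted p = 0.72). The ratio of Ajuba to Limd1 was 0.869, 0.814, 0.817 and 0.852 in YAP5SA, against 0.624, 0.66, 0.676 and 0.642 in wild type. It separated the genotypes with a log2 difference of 0.37 (exact permutation p = 0.029, adjusted p = 0.048 over the 5 pairs, chosen after values were seen). By FPKM, Ajuba was 54.1 ± 0.799% of the pair in YAP5SA and 47.8 ± 0.864% in wild type.

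**Figure D4:**
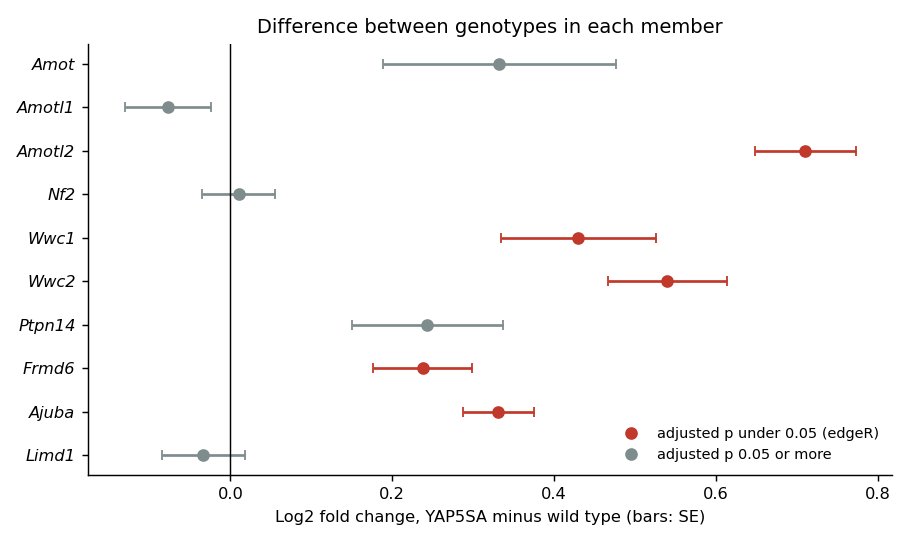
Log2 fold change of each member, YAP5SA minus wild type, with its SE derived from the edgeR F statistic, in red where the adjusted p was under 0.05 and in grey otherwise. Amotl2 lies furthest from 0 at 0.71, and Amotl1, Nf2 and Limd1 lie within 0.08 of it.

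On the FPKM scale the order of the members differed between the genotypes. That order depends on the lengths behind the FPKM values, which are not given. In mean fragments per exonic base over all libraries, Wwc2 was at 0.104 and Limd1 at 0.198, the reverse of their FPKM order in YAP5SA. In YAP5SA, Amotl2 was highest at 65.0 ± 2.62 FPKM and its range stood clear of the next, Nf2 at 43.4 ± 1.11, Wwc2 at 42.8 ± 1.86 and Ajuba at 41.8 ± 1.26 FPKM, whose ranges overlapped their neighbours. Limd1 (35.4 ± 1.80), Amotl1 (32.8 ± 1.41), Wwc1 (32.1 ± 3.24) and Amot (31.9 ± 4.59) formed a second overlapping run, and Ptpn14 (23.1 ± 1.03) and Frmd6 (18.4 ± 1.55) stood apart below them. In wild type, Nf2 was highest at 43.3 ± 1.78 FPKM, and each of the first 8 members overlapped the next, through Amotl2 (39.3 ± 3.22), Limd1 (36.0 ± 1.42), Amotl1 (34.3 ± 1.70), Ajuba (32.9 ± 0.938), Wwc2 (29.1 ± 3.50), Amot (25.0 ± 4.60), Wwc1 (23.7 ± 3.21) and Ptpn14 (19.4 ± 3.03). Frmd6 was lowest at 15.8 ± 0.484 FPKM, with no overlap.

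For each member that rose, the 3 loci with the most similar log2 CPM profile over the 8 libraries were found among 12455 candidates. These correlations include the shared genotype difference and are a description only. Amotl2 was most like Tead4, a TEAD factor (r = 0.995; 81.4 ± 10.2 CPM in YAP5SA and 18.1 ± 6.93 CPM in wild type), the Hippo kinase gene Lats2 (r = 0.994; 178 ± 6.19 CPM in YAP5SA and 109.6 ± 7.18 CPM in wild type) and Dse (r = 0.993), which encodes an epimerase of dermatan sulfate. Wwc2 was most like Fgf5 (r = 0.992), Wdr35 (r = 0.991) and Rab38 (r = 0.987). Ajuba was most like Irf5 (r = 0.994), the homeobox gene Msx1 (r = 0.988) and the polarity kinase gene Prkci (r = 0.988). Wwc1 was most like Rab3ip (r = 0.991), the ligand gene Wnt4 (r = 0.989) and Mafk (r = 0.988). Frmd6 was most like the cytokine receptor gene Il6ra (r = 0.99), Arhgap30 (r = 0.987) and Dusp5 (r = 0.985).

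Summed macrophage markers were at 872, 745, 690.2 and 604 CPM in YAP5SA libraries 1 to 4, against 422, 446, 451 and 333 CPM in wild type libraries 1 to 4. Within YAP5SA, Wwc1 and Wwc2 had the same order of libraries as these sums, and Frmd6 had it except that libraries 3 and 4 were nearly level at 68.0 and 68.2 CPM. Within wild type, Wwc2 and Frmd6 were highest in library 3, as the sums were, and so were Amotl2, Ajuba, Amot and Ptpn14. Wwc1, Nf2 and Limd1 were highest in library 1 and Amotl1 in library 4. Ajuba was lowest in YAP5SA library 1, where the sum was highest, and Amotl2 was highest in YAP5SA library 2. Other lists shared the falling order of the macrophage sums in YAP5SA. In YAP5SA libraries 1 to 4 the smooth muscle sums were 1531, 1442, 1378 and 1250 CPM. Sums of the 20 YAP/TAZ target genes described below were 2502.5, 2431, 2407 and 2210 CPM. Within wild type the target sums were highest in library 3 (1844 CPM) and the smooth muscle sums in library 1 (2218 CPM). The part of any of these lists in the results was not tested.

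Other genes around the pathway give the setting. Of 25 tested junction and polarity genes, 5 rose and 3 fell (median 0.04). With the replicate block Mpdz rose as well (adjusted p = 0.022), making 6. The rises were Wtip, the relative of Ajuba and Limd1 (0.37 ± 0.06, adjusted p = 0.002), Prkci (0.29 ± 0.04), the junction scaffold genes Magi3 (0.32 ± 0.07) and Tjp1 (0.29 ± 0.07) and the polarity gene Pard6b (0.30 ± 0.09). Those that fell were the Crumbs gene Crb3 (−1.07 ± 0.13), the atypical protein kinase C gene Prkcz (−0.96 ± 0.14) and the cadherin gene Cdh1 (−0.72 ± 0.15), and Cdh1 is itself on the epithelial list above. Among 15 Hippo kinases and adaptors 2 rose, Lats2 (0.70 ± 0.05, adjusted p = 4.3e-05) and Map4k5 (0.32 ± 0.06), and Map4k3 fell (−0.13 ± 0.04, adjusted p = 0.031). With the replicate block Map4k3 was not called (adjusted p = 0.062), so that 2 rose and 0 fell (edgeR). Lats1 was not tested, since its fragments lie in a locus joined with Nup43.

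Yap1 itself was at 204, 229, 233 and 229 CPM in YAP5SA, against 225, 226, 239.6 and 237 CPM in wild type (adjusted p = 0.55), a value that need not count the transgene. Of 8 tested YAP, TAZ, TEAD and Vestigial-like genes 3 rose, Tead4, Vgll3 and Tead1, and 0 fell (edgeR). Tead1 (0.41 ± 0.10, adjusted p = 0.02) was not called with the replicate block (adjusted p = 0.062), which left 2 of 8. A published YAP/TAZ target signature holds Amotl2 and Ptpn14, and of its 20 other genes 13 rose and 2 fell, with a median log2 fold change of 0.66. With the replicate block 14 rose, adding Nuak2 (adjusted p = 0.044). Cyr61 was at 99.3 ± 13.7 CPM in YAP5SA and 35.8 ± 4.88 CPM in wild type (1.48 ± 0.12), and Ctgf at 56.0 ± 14.8 CPM in YAP5SA and 33.2 ± 4.71 CPM in wild type (0.75 ± 0.18), so the log2 fold change of Amotl2 was close to those of Ctgf and Lats2 and that of Ptpn14 below them. Nt5e (3.10 ± 0.31), Crim1 (0.83 ± 0.10) and Igfbp3 (0.68 ± 0.06) rose too, and Foxf2 and Gadd45a fell. The 4 members with a TEAD core motif before their RefSeq start had log2 fold changes of 0.71, 0.54, 0.33 and 0.24, of which the last, Ptpn14, was not called, and the 5 without it had 0.43, 0.33, 0.24, 0.01 and −0.08, of which Wwc1 and Frmd6 rose.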

How the data were processed

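RNA profiles of E13.5 stomachs were analysed as 4 YAP5SA and 4 wild type libraries, grouped by title. The table numbers libraries 0 to 3, read here as the titles' 1 to 4. Per the labels' protocols, frozen tissue was extracted with Trizol and sequenced after TruSeq preparation. The build was mm10, and the submitters' processing notes name Cuffdiff, Cufflinks 2.2.1 and TopHat2 2.0.9. Read filters, duplicate handling and strand use are not given in the sources used here.

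The deposited raw fragments are estimated counts, of which 10.6% to 11.0% per library are not whole. They were rounded. The FPKM values are the authors' own, per the file headers, with no statement of their scaling, and their group FPKM equals the library mean within 0.01. Unnamed loci (3582, with 1.85% to 1.97% of fragments) were left out. Named loci were tested with edgeR 4.0.16 (R 4.3.3; quasi-likelihood, robust, TMM, default filterByExpr). The tool was also run on simulated counts of independent libraries, which lack the shared deviation of same-numbered libraries and so cannot speak to it. The SE of a log2 fold change was derived as its absolute value divided by the square root of the F statistic. Levels of related genes were compared by exact permutation tests of within-library ratios, pairs that were chosen after values were seen. Alternatives used DESeq2 1.42.0, limma 3.58.1 (voom, and log2 FPKM with a pseudocount of 1 or 0.1), other scaling and filters, an Xist covariate, the replicate block and left-out libraries.

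The members and gene lists were chosen with earlier results of these data known. Named were all members, the 3 most alike loci (mean CPM of at least 5) of each called member, up to 6 called genes of each pathway list, the 3 most abundant markers of cell type lists, and Yap1, Lats2, Ankrd1, Cyr61 and Ctgf. Tjp1, Pard6b, Foxf2, Gadd45a, Mpdz, Nuak2, Eng, Tyrobp, Smtn, Krt19, Ddx3y, Eif2s3y, Kdm5d, Uty, Lats1, Nup43, Cldn22 and Gm26574 fall outside that rule and were named after values were seen. Where a symbol had several loci, the one with most fragments was used. Same-numbered libraries of the genotypes deviated together (r = 0.141 to 0.22 in all 4 pairs, against −0.253 to 0.104 for other pairs), so the replicate block is given where it changes the call of a member or of a gene in the lists. The labels do not say that libraries came from separate embryos, so the p-values rest on library spread, which may be technical. Replicates differed by more than counting error (chi-square per degree of freedom 2.29 to 7.3).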

Additional observations from a re-analysis of the deposited data

How the results depend on the processing

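Under 21 alternative settings, between 2032 and 3035 loci were called, against 2757 as reported. Of the members 4 to 7 were called, all higher in YAP5SA. Leaving out 1 library gave 2032 to 2805 loci and 4 to 6 members. The replicate block gave 7 members, adding Amot and Ptpn14, and changed no other member's call. Amotl2 (log2 fold change 0.68 to 0.76), Wwc2 (0.48 to 0.63), Wwc1 (0.38 to 0.54) and Ajuba (0.32 to 0.36) were called in every setting. Frmd6 lost its call in 6 settings, and Ptpn14 gained one in 3 and Amot in 1. Amotl1, Nf2 and Limd1 were called in none. The causes of the lost and gained calls were not tested. The ratios of related genes, recomputed with FPKM after the data were seen, stayed on the same side of the threshold (log2 difference 0.79, 0.42 and 0.37 for the pairs that separated). Within genotypes, counts followed depth with a median log-log slope of 1.355 at loci under 0.1 fragments per exonic base, where Frmd6 (0.074) lies. The slope was 0.81 from 0.1 to 0.2, where Amot, Wwc1, Wwc2, Ptpn14 and Limd1 lie, and 0.55 from 0.2 to 0.3, where Amotl1, Amotl2, Nf2 and Ajuba lie. Every YAP5SA library was deeper than every wild type library. The part of depth in the fold changes and in the ratios of related genes was not tested.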
